A study of Mus musculus with 8 samples.

Results

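The comparison was between 2 groups of MC3T3-E1 libraries. MC3T3-E1 is an established pre-osteoblast line from mouse calvaria, able to form mineralizing osteoblasts in culture. Members were chosen by column: the libraries titled control 1 and control 2 against those titled NM-DMSO 1 and NM-DMSO 2, which are 4 of the 8 RNA-seq libraries of the study, over all 28901 genes of the count table. The remaining 4 libraries, 2 titled Brd and 2 titled NM-Brdi, entered the fit and gave another pair. The study concerns the bromodomain protein BRD9, its inhibitor I-BRD9 and Wnt/β-catenin signalling in osteogenic differentiation.

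The labels define each group by its title alone and all groups by the same line and the same basic medium with 10% serum. For differentiation the design text adds glycerol phosphate at 10 mM, ascorbic acid at 0.25 mM and the synthetic glucocorticoid dexamethasone at 0.1 µM. For inhibition it gives DMSO, the vehicle, or I-BRD9 at 10 µM. Which libraries got the osteogenic medium, how the control cultures were treated and what NM abbreviates are not stated, so a difference between the groups cannot be assigned to a medium or an agent from the labels. The cells are 1 established line, and separate cultures are not stated for libraries with the same title. The p-values thus measure only the spread between libraries with the same title, pooled over all 8 libraries, and that spread may be technical.

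As background, an osteoblast precursor is committed by the transcription factors Runx2 and then Sp7 (osterix), lays down a matrix of type I collagen, and mineralizes it with the help of alkaline phosphatase and acidic matrix proteins. Glucocorticoids act through a nuclear receptor that binds DNA at palindromic elements and switches on a well known set of direct targets in most cell types. Wnt ligands stabilize β-catenin, which drives targets such as Axin2 and promotes osteoblast formation, and BMP, FGF and IGF signals act beside it.

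Total counts were 19945266 and 17311252 in the control libraries and 20980664 and 21636493 in the NM-DMSO libraries. Levels are in CPM, a gene's count rescaled by the TMM-adjusted size of its library so that 1 CPM corresponds to 16.8 to 22.5 counts here. The NM-DMSO libraries differed more from each other than any other pair: 514 genes with a mean of at least 10 CPM were over 2-fold apart between them, against 0 in each of the other 3 groups. On the first principal component, with 53.8% of the variance, the control libraries lay at -39.55 and -39.84 and the NM-DMSO libraries at 91.13 and 28.37. Processed pseudogenes took 15.2% of counts in both control libraries, 21.2% in NM-DMSO 1 and 18.0% in NM-DMSO 2. The 15 listed osteoblast transcription factors summed to between 1760 and 2021 CPM in the 4 libraries, and the endothelial and epithelial marker lists to at most 0.87 CPM. The smooth muscle and contractile list summed to between 2333 and 3247 CPM and the cartilage list to between 407 and 795 CPM. Cell identity was not tested.

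Of 17038 genes tested, 3988 were called at an adjusted p under 0.05 (edgeR quasi-likelihood test, Benjamini-Hochberg), which is 23.4%. Of these, 2037 (12.0% of those tested) were higher in control and 1951 (11.5%) lower, and the median log2 fold change (control minus NM-DMSO) over all tested genes was -0.02. With upper-quartile scaling 1689 were higher and 2981 lower. At 2-fold or more, 818 were higher and 606 lower. The counts of called members in the lists below are to be read beside the shares of 12.0% higher and 11.5% lower. The libraries of the groups did not overlap for 11617 tested genes (68.2%), among them all 3988 called. The fit shares 1 spread per gene over all 8 libraries, so the wide NM-DMSO spread is pooled with that of the closer pairs. With the 4 libraries of the pair alone, 371 genes were called, 311 higher and 60 lower. The number of calls also depended on single libraries. It was 1453 without Brd 1, 1445 without Brd 2, 556 without control 1, 562 without control 2, 1545 without NM-Brdi 1 and 1549 without NM-Brdi 2. It was 6060 without NM-DMSO 1 and 11265 without NM-DMSO 2. A set of 495 genes (2.91% of those tested), 417 higher and 78 lower, was called in the main fit and in all 8 fits that left out 1 library. Below, a gene called in 6 of these 8 fits was lost without control 1 and without control 2, one called in 4 of 8 also without Brd 1 and Brd 2, and one called in 2 of 8 also without NM-Brdi 1 and NM-Brdi 2, unless stated otherwise.

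**Figure D1:**
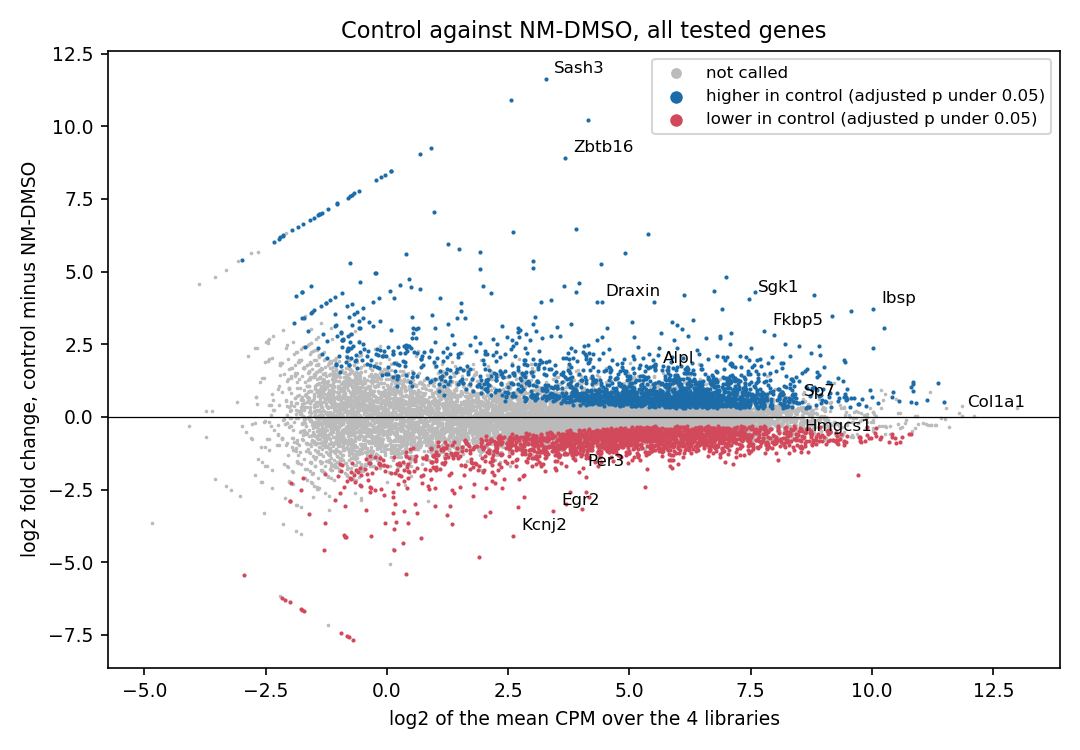
Fitted log2 fold change (control minus NM-DMSO, vertical axis) of the 17038 tested genes against the log2 of their mean CPM over the 4 libraries. Each point is 1 gene, coloured by whether it was called higher (2037) or lower (1951) in control, and the points along the straight edges at low CPM are genes with few or no counts in 1 of the groups.

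The glucocorticoid-regulated genes were the list that stood highest. Like the other lists, it was written with earlier results of these data known, so its counts are descriptions. Of 20 listed genes, 17 passed the filter on low counts, and all 17 were called higher in control, 14 of them in all 8 leave-one-out fits. Their median log2 fold change was 2.38, against -0.02 over all tested genes, and it stayed at 2.31 or above under upper-quartile scaling, with exon-length offsets and without either NM-DMSO library. Zbtb16, Mt2 and Lcn2, which are among the 17, had at most 2 counts over the NM-DMSO libraries, so they passed the filter through other groups. The 3 that were not tested were Cdkn1c, with 4 counts in control and 6 in NM-DMSO, Klf15 with 10 counts in control and 0 in NM-DMSO, and Angptl4 with 0 and 4.

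Promoters of 15 listed genes were found in the RefSeq table for GRCm38.p6, and each entry runs from 250 bases before a gene start to 50 after it. A palindrome of the shape of a glucocorticoid response element, the half-site GNACA followed after any 3 bases by its reverse complement TGTNC, was searched, and it reads the same on both strands. It occurred in promoters of 3 of the 15, and in 0.54% of the 27025 genes of that table. A gene was counted if any of its listed promoters held the letters. The list was written from known glucocorticoid targets, and these shares were not compared by a test. The promoters of these 3 genes are shown because the genes were higher in every control library and hold these letters close to their start; the palindrome is in capitals. That of Map3k6, a kinase of a stress-activated cascade, is chr4:133240568-133240867 on the plus strand, with the palindrome starting at -181. That of Mt1, a metallothionein that binds zinc, is chr8:94178839-94179138 on the plus strand, with the palindrome at -94. That of Sgk1, a kinase induced by serum and glucocorticoids, is 1 of its 6 listed promoters, chr10:21993640-21993939 on the plus strand, with the palindrome at -188. A match describes the letters and was not tested for binding.
Map3k6: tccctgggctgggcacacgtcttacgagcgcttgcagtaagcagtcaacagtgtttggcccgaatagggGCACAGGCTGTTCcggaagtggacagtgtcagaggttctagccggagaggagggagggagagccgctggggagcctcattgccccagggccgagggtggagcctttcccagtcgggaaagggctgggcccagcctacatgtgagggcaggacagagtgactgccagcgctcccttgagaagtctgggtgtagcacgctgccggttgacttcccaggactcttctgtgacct
Mt1: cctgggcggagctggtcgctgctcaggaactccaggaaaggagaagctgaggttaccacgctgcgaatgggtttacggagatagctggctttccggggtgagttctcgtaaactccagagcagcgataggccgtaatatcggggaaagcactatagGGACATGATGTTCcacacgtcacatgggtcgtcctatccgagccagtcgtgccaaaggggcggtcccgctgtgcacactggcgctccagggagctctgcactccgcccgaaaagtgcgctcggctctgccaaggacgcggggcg
Sgk1: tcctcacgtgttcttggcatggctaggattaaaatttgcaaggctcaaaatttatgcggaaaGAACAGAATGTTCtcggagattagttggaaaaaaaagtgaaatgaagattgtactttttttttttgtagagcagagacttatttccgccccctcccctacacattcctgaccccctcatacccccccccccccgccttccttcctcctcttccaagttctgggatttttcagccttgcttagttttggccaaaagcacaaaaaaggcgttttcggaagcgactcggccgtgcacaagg

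Sgk1 stood at 342 and 328 CPM in the control libraries and at 20.8 and 19.02 CPM in NM-DMSO. Both control libraries were far above both NM-DMSO libraries, a 16.8-fold difference (log2 fold change 4.07, SE 0.14, adjusted p = 2.88e-05). Tsc22d3 (GILZ), a leucine zipper protein that damps inflammatory signalling, stood at 1040.1 and 1085 CPM against 111 and 82.7. That is 10.99-fold (log2 fold change 3.46, SE 0.17, adjusted p = 6.22e-05), and it was among the more abundant mRNAs of control. Fkbp5, a co-chaperone that restrains the glucocorticoid receptor, stood at 384 and 393 CPM against 54.5 and 45.4, a 7.78-fold difference (adjusted p = 4.46e-05). Zbtb16 (PLZF), a zinc finger factor linked to osteoblast differentiation, was close to absent from NM-DMSO. It had 922 counts over the control libraries and 2 over NM-DMSO, a ratio of 542 with an exact 95% counting interval of 150 to 4482. Errfi1, a feedback inhibitor of the EGF receptor, was 6.93-fold higher at 206 and 199.7 CPM against 24.8 and 33.7.

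The other members were higher by smaller factors. Map3k6 stood at 30.0 CPM in both control libraries and at 4.42 and 6.33 in NM-DMSO, and Mt1 at 34.9 and 37.8 against 14.1 and 10.5. Glul, glutamine synthetase, was 5.21-fold higher, although a transcribed pseudogene shares 1126 bases with it and reads could be split between them. Pdk4, a kinase that shuts down pyruvate dehydrogenase, was 3.16-fold higher, Cebpd 3.38-fold, Dusp1, a phosphatase of MAP kinases, 3.25-fold, and the transcription factor Klf9 2.60-fold. Lox, the lysyl oxidase that cross-links collagen, stood at 2547 and 2575 CPM against 967 and 1266. Nfkbia, the inhibitor of NF-κB, differed least, 1.65-fold, and its call was lost without control 1. Mt2 had 36 counts in control and 0 in NM-DMSO, at least 14.1-fold higher against a floor of 3 counts over the group, and with Mt2 at that bound the list median is the same. Lcn2 had 33 counts against 2, a ratio of 19.4 with an interval of 4.96 to 166.8. The receptor itself, Nr3c1, named after its values were seen, stood at 176 and 175 CPM in control and 126 and 166 in NM-DMSO and was not called (adjusted p = 0.178).

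**Figure D2:**
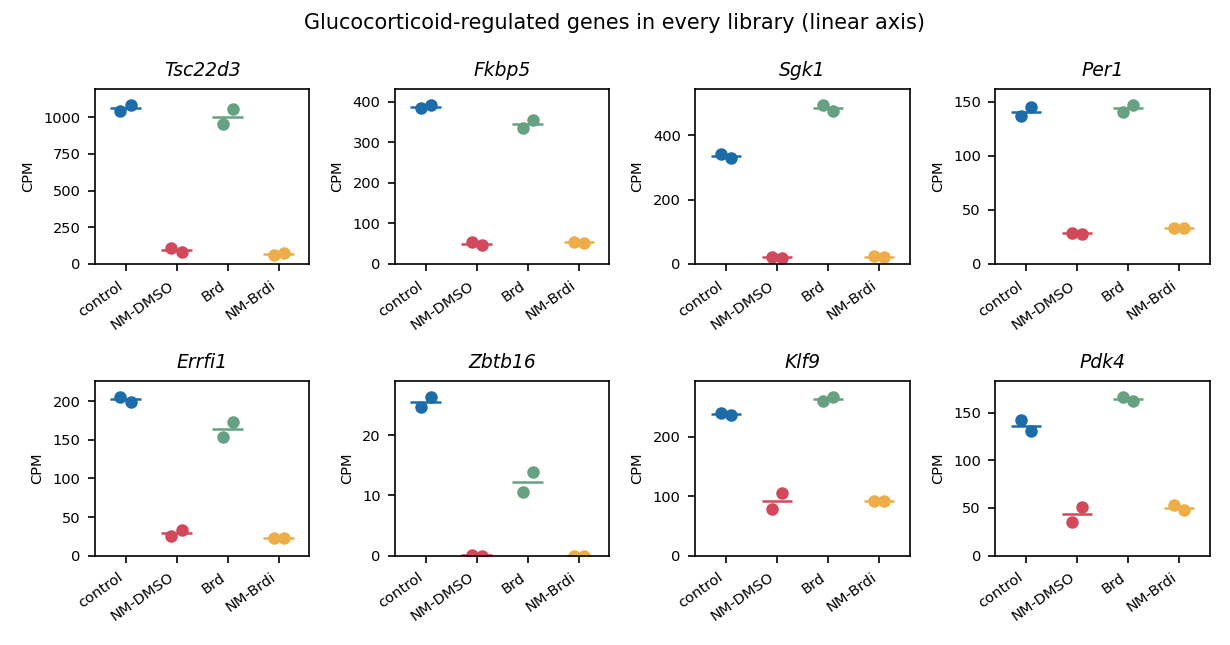
CPM (linear vertical axis) of 8 glucocorticoid-regulated genes in each of the 8 libraries, with 1 point per library and a bar at each group mean. The control points lie above the NM-DMSO points in every panel, for example 342 and 328 against 20.8 and 19.02 CPM for Sgk1, and the Brd points lie above the NM-Brdi points.

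Circadian clock genes changed in both directions. Of 13 tested members 4 were called higher and 6 lower, against 12.0% and 11.5% of all tested genes. In the mammalian clock, the activators Arntl (Bmal1) and Clock drive the Per and Cry repressors through E-boxes, and the outputs Dbp and Tef bind D-boxes. Per1, also a direct glucocorticoid target, stood at 136 and 145 CPM in control and at 29.0 and 27.5 in NM-DMSO, 4.98-fold higher. Per3 went the other way, with 6.74 and 6.43 CPM in control and 20.9 and 28.4 in NM-DMSO, 3.75-fold lower (log2 fold change -1.91, SE 0.18, adjusted p = 0.00067). For neither gene did the groups overlap, which held for all 3988 called genes. The promoters of these 2 period genes are shown because they were called in opposite directions and are the only 2 of 12 listed clock genes with a promoter entry that hold the D-box letters TTATGNAA on either strand (3.99% of all genes do); the D-box is in capitals. That of Per1 is chr11:69098699-69098998 on the plus strand, 1 of 2 listed, with the D-box starting at -24. That of Per3 is chr4:151044616-151044915 on the minus strand, with D-boxes at -205 and -158.
Per1: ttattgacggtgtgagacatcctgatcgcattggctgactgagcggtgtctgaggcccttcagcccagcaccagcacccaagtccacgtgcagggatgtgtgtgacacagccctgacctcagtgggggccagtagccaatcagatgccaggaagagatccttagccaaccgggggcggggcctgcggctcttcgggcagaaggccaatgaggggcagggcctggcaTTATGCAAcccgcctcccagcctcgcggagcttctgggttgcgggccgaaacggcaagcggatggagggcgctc
Per3: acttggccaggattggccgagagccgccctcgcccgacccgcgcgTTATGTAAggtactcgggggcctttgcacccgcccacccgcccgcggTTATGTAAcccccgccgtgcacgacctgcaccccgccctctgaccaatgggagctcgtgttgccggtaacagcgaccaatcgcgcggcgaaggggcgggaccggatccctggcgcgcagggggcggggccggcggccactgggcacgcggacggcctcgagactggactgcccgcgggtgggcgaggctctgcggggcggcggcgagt

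Arntl stood at 28.0 and 28.3 CPM in control against 8.04 and 6.99, 3.75-fold higher, and the repressor Cry1 was 1.70-fold higher (6 of 8 leave-one-out fits). Clock was 1.82-fold higher in the main fit, in 2 of 8. Nr1d2 (Rev-erbβ), a repressor of Arntl, stood at 28.5 and 24.8 CPM against 82.2 and 99.95, 3.42-fold lower. Dbp was at 0.669 and 0.953 CPM against 7.54 and 8.20, a log2 fold change of -3.28, but its exons overlap those of Sphk2 by 539 bases on the opposite strand, and without the strand setting their reads cannot be told apart. Ciart and Tef (6 of 8) and Nr1d1 (2 of 8) were also lower, and Nr1d1, the closest relative of Nr1d2, was 1.67-fold lower.

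Immediate early genes, which respond within minutes to growth factors, had 5 of 14 tested members lower and 3 higher. Over all tested genes 11.5% were lower and 12.0% higher. Egr2 stood at 1.85 and 2.26 CPM in control and at 18.5 and 20.1 in NM-DMSO, 9.39-fold lower (log2 fold change -3.23, SE 0.20, adjusted p = 0.000138). Egr1 followed at 9.98 and 9.17 CPM against 18.9 and 21.1, 2.09-fold lower, and Nr4a1 was 1.93-fold lower (6 of 8). These zinc finger and nuclear receptor factors had no overlap between groups, as had all 3988 called genes and 68.2% of tested genes. Of the AP-1 members, Fos, Fosb, Jun, Jund and Atf3 were not called, while Fosl2 was 1.74-fold higher (2 of 8), Junb 1.45-fold (4 of 8) and Fosl1 8.12-fold, although Fosl1 shares 1163 exon bases with the far more abundant Ccdc85b.

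Among osteoblast genes, calls went both ways: Ibsp, Alpl, Spp1 and Mepe were higher in control and Bglap, Dmp1 and Phospho1 lower, while Col1a1 and Runx2 were not called. Of 15 osteoblast transcription factors, 3 were called higher and 3 lower (median log2 fold change 0.13), and of 21 tested matrix and mineralization genes, 5 higher and 6 lower (median 0.02). Over all tested genes 12.0% were higher and 11.5% lower. Of the 21, Ostn was matched through a synonym to the symbol Ostc, which names another gene. Ostc was not called (log2 fold change -0.26), and the median includes it. Ibsp, bone sialoprotein, which nucleates mineral (chr5:104299171-104311469, GENCODE M21), stood at 1913 and 1943 CPM in control and at 155 and 142 in NM-DMSO. The groups were far apart, 13.0-fold (log2 fold change 3.70, SE 0.35, adjusted p = 0.000667), and the call held in all 8 leave-one-out fits. Alpl, tissue-nonspecific alkaline phosphatase, stood at 69.2 and 70.7 CPM against 24.6 and 19.96, 3.14-fold higher (adjusted p = 0.00177), also in all 8. Spp1, osteopontin, stood at 585 and 549 CPM against 332 and 266, 1.90-fold higher (adjusted p = 0.00449). Its call was lost without control 1, and Spp1 was not called with the 4 libraries alone (adjusted p = 0.073).

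Sp7, osterix, which the study's title names (chr15:102356606-102367182), stood at 413 and 398 CPM in control and at 295 and 271 in NM-DMSO. The groups did not overlap, which held for all 3988 called genes. The 1.43-fold difference (log2 fold change 0.52, SE 0.14) passed narrowly at an adjusted p of 0.0394. It missed the threshold without Brd 1 (adjusted p = 0.0812), without Brd 2 (0.081), without control 1 (0.192) and without control 2 (0.169). It also missed it with upper-quartile scaling (0.0518), with weighted voom (0.102) and with the 4 libraries alone (0.139). Runx2, at 461 and 468 CPM against 349 and 409, was not called (log2 fold change 0.29, SE 0.13, adjusted p = 0.127). Its log2 fold change depended on the NM-DMSO library, at 0.18 without NM-DMSO 1 and 0.41 without NM-DMSO 2. Of the listed osteoblast transcription factors, the homeobox factor Msx2, a BMP target, had the smallest adjusted p, at 31.7 and 34.8 CPM against 11.3 and 10.8, 3.00-fold higher (adjusted p = 0.000329) in all 8 fits. Zfp521, a partner and antagonist of Runx2, was 1.49-fold higher, and Dlx3, Dlx6 and Mef2c were lower, each in 2 of 8 leave-one-out fits.

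Bglap, osteocalcin, the marker of mature osteoblasts, was low throughout, at 3.29 and 2.74 CPM in control and 8.73 and 6.01 in NM-DMSO. It was 2.43-fold lower in control (adjusted p = 0.0235, 4 of 8) and was not called with the 4 libraries alone (adjusted p = 0.118). Its neighbour Bglap2 matches it over 439 of its 440 bases, so the split of reads between them is uncertain. Bglap2 was lower as well. Dmp1, an acidic protein of osteocytes, stood at 0.514 and 0.595 CPM against 2.03 and 4.19. Its log2 fold change was -2.48 (6 of 8), and -1.87 without NM-DMSO 2, and it was not called with the 4 libraries alone. Mepe, also from osteocytes, was higher at 1.44 and 1.01 CPM against 0.199 and 0.0891 (2 of 8). Phospho1, a phosphatase of matrix vesicles, was lower at 0.823 and 1.01 CPM against 2.03 and 2.85, and so were the phosphate transporter Slc20a1 and the pyrophosphate regulator Ank, each in 2 of 8 fits. Of 5 tested members of the osteocyte list, 2 were called higher and 2 lower (median log2 fold change 0.53), beside 12.0% and 11.5% of all tested genes. Its membrane protein Pdpn was lower at 36.3 and 34.5 CPM against 77.3 and 63.7, 1.99-fold, in all 8 fits. Its member Irx5 was higher at 212 CPM in both control libraries against 153 and 141 (log2 fold change 0.53, adjusted p = 0.014, 6 of 8). Col1a1, the main chain of bone collagen, stood at 3551 and 3911 CPM against 3594 and 3204 with overlapping groups (log2 fold change 0.13, SE 0.11, adjusted p = 0.359). Its log2 fold change was 0.219 without NM-DMSO 1 and 0.055 without NM-DMSO 2.

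**Figure D3:**
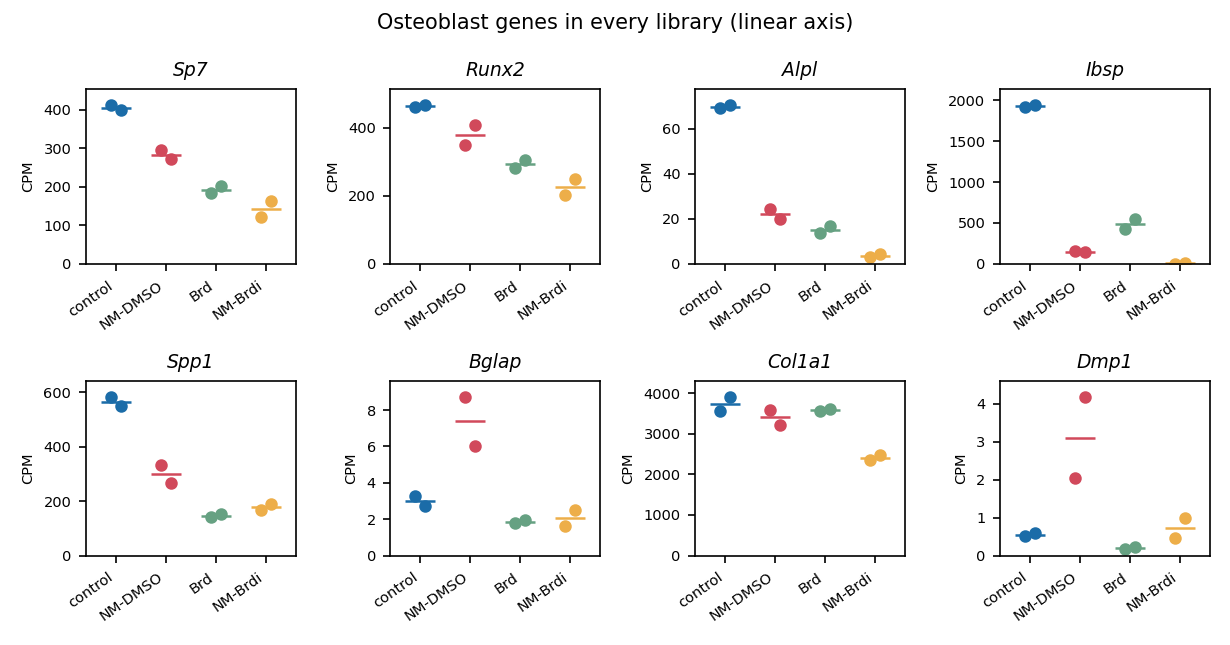
CPM (linear vertical axis from 0) of 8 osteoblast genes in each of the 8 libraries, with 1 point per library and a bar at each group mean. For Ibsp the control points, at 1913 and 1943 CPM, lie far above the NM-DMSO points at 155 and 142, for Sp7 the gap is small, and for Bglap and Dmp1 the NM-DMSO points are on top.

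The collagens as a group leaned towards control, in which 12.0% of all tested genes were called higher and 11.5% lower. Of 23 tested chains, 11 were called higher and 1 lower, with a median log2 fold change of 0.47, and 3 were called in all 8 leave-one-out fits. Col8a1, a short-chain network collagen, stood at 791 and 767 CPM against 310 and 381, 2.25-fold higher (adjusted p = 0.00106). Col6a2, a chain of the beaded filaments around cells, stood at 1725 and 1801 CPM against 961 and 1005, 1.79-fold higher. Col18a1, whose tail is endostatin, was higher by 1.43 on the log2 scale. The exception was the basement membrane chain Col15a1, at 2.26 and 3.33 CPM against 7.84 and 8.69, 2.96-fold lower. These are long genes, with a median exon length of 7833 bases in the list against 3476 over all tested genes, and long genes as a whole were higher in control, as given below; with exon-length offsets 8 chains were higher and 1 lower, and the median was 0.26. Among 22 enzymes of collagen hydroxylation, folding and cross-linking, 8 were higher and 0 lower, led by Lox, described above, and Loxl3, which overlaps Htra2. Of the 8 tested small leucine-rich proteoglycans, Bgn (biglycan) was 1.46-fold higher and Fmod (fibromodulin) 1.38-fold higher, in 6 and 4 of the 8 fits.

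Several secreted proteases were much higher. Adamts1, a protease of the cartilage proteoglycan aggrecan and of versican, stood at 1409 and 1410.4 CPM against 93.5 and 132, 12.5-fold higher (log2 fold change 3.64, SE 0.19, adjusted p = 7.74e-05). Mmp13, collagenase of bone and cartilage and a Runx2 target, stood at 496 and 508 CPM against 100.3 and 76.3, 5.69-fold higher (adjusted p = 0.000505). For both, the control libraries lay close together and far above NM-DMSO. Adamts5 was 2.44-fold higher and Mmp2 1.39-fold (4 of 8), while Mmp9, a gelatinase, was 2.96-fold lower at no more than 7.17 CPM (4 of 8). In all, 5 of 14 tested members of the protease and inhibitor list were higher and 1 lower.

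Markers of cartilage leaned the same way: 5 of 8 tested members were called higher and 0 lower, with a median log2 fold change of 1.02. Hapln1, the link protein of cartilage matrix, stood at 210.0 and 197 CPM against 9.33 and 11.05, 19.95-fold higher (adjusted p = 2.88e-05). Col2a1 stood at 141 and 143 CPM against 58.7 and 57.5, 2.45-fold higher, and Matn3 was 2.67-fold higher, each in all 8 fits. Summed over the 12 counted markers, which include Hapln1 and Col2a1, the list stood at 771 to 795 CPM in control and 407 to 429 in NM-DMSO. Of the defining markers, the transcription factor Sox9 stood at 183 and 171 CPM against 188 and 139, with overlapping groups. It was not called (log2 fold change 0.11, adjusted p = 0.568). Acan had 2 counts in control and 0 in NM-DMSO, Col10a1 3 and 2, and Col9a1 0 and 1.

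Of 3 tested signals from osteoblasts to osteoclasts, 2 were called higher and 0 lower. Csf1 (M-CSF), the growth factor of osteoclast precursors, stood at 809 and 783 CPM against 212 and 273, 3.28-fold higher (adjusted p = 0.000373). Il34, the second ligand of its receptor, stood at 8.18 and 8.16 CPM against 1.59 and 1.29, 5.67-fold higher. Both calls held in all 8 fits. Tnfrsf11b (osteoprotegerin), the decoy receptor that blocks osteoclast formation, stood at 90.2 and 94.2 CPM against 120.05 and 109 and was not called (adjusted p = 0.0975), but it was called lower without either NM-DMSO library. Macrophage and osteoclast markers themselves had 0 of 7 higher and 2 lower, Itgb3 and Mmp9, and the defining gene Ptprc had 3 counts in control and 0 in NM-DMSO. That list summed to 120 and 121 CPM in control and 147 and 114 in NM-DMSO. The adipocyte list stood at 45.1 and 45.0 CPM against 63.3 and 56.2, with Plin2 1.31-fold lower (2 of 8) and Cd36 at 0 counts in control and 49 in NM-DMSO, at least 13.9-fold lower. Other adipocyte markers, too low to be tested, had more counts in control: Fabp4 had 15 against 2, a ratio of 8.82 with an interval of 2.0504 to 79.5, and Lep 8 against 2. Smooth muscle and contractile genes stood at 2333 and 2407 CPM against 3247 and 2398. Of 9 tested, 2 were higher and 2 lower, beside 12.0% and 11.5% of all tested genes.

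Wnt/β-catenin genes did not move one way. Axin2, the feedback inhibitor most used as a readout of the pathway, stood at 94.5 and 98.0 CPM in control and at 26.7 and 32.2 in NM-DMSO, 3.27-fold higher (log2 fold change 1.71, SE 0.15, adjusted p = 0.000565). Ccnd1, cyclin D1, was 1.99-fold higher (6 of 8), and part of its exons is shared with LTO1. On the other side, Lef1, a partner of β-catenin on DNA, stood at 1.18 and 1.13 CPM against 6.75 and 4.86, 4.98-fold lower. Tcf7 was 2.62-fold lower (6 of 8), and Tcf7l2, Rnf43 and Apcdd1 were lower in 2 of 8. Over the 13 tested targets 2 were higher and 5 lower, with a median of -0.74 on the log2 scale. Ctnnb1, β-catenin itself, was 1.63-fold higher at 589 and 599 CPM against 340.5 and 389 (adjusted p = 0.00467, 6 of 8). It was not called with the 4 libraries alone (adjusted p = 0.0972). All 3 called antagonists were higher: Draxin, at 39.6 and 35.9 CPM against 2.98 and 1.96, was 15.3-fold higher, Wif1 2.87-fold and Sfrp2 1.499-fold, out of 6 tested. The agonist Rspo3, an R-spondin, was 6.72-fold lower at 4.17 and 5.18 CPM against 35.5 and 27.3.

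Of 12 tested BMP response genes and inhibitors, 6 were called higher and 1 lower (median 0.46 on the log2 scale). Id4 stood at 112 and 106 CPM against 35.5 and 33.5, 3.15-fold higher (adjusted p = 0.000157). Id1, the classic immediate target, was 2.48-fold higher at 27.8 and 26.6 CPM against 12.2 and 9.80. The intracellular pathway members Smad9 and Smad6, the latter an inhibitor, were 2.42-fold and 2.06-fold higher, and these 4 calls held in all 8 fits. The ligand Bmp4 was 1.51-fold higher (6 of 8). Nog (noggin), which traps BMPs, stood at 1.29 and 0.476 CPM against 5.91 and 3.70, with a log2 fold change of -2.41 that was -3.31 without control 1 and -1.89 without control 2. Its call was lost without control 2 and with the 4 libraries alone.

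Targets of YAP and TGF-β had 8 of 16 members higher and 1 lower (median 0.46), against 12.0% and 11.5% of all tested genes. Ccn1 (Cyr61) stood at 463 and 470 CPM against 209 and 187, 2.36-fold higher. Postn, periostin, which is abundant in periosteum, stood at 3591 and 3663 CPM against 1709 and 1538, 2.23-fold higher. Both were called in all 8 fits. Ccn2, a relative of Ccn1 that shares its regulation by YAP, did not follow, at 34.5 and 28.3 CPM against 44.3 and 42.4 (log2 fold change -0.47, SE 0.17, adjusted p = 0.0793). It was called lower without NM-DMSO 1 (adjusted p = 0.0195), without NM-DMSO 2 (0.00379), with the replicate block (0.0336) and with no filter (0.0114).

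The median log2 fold change was 0.50 over the IGF list and 0.13 over the FGF list, the latter being -0.05 without NM-DMSO 2. Igf1, a trophic factor of bone, stood at 624 and 551 CPM against 181 and 212, 2.99-fold higher (adjusted p = 0.000304), and 6 of 11 tested IGF genes were higher and 0 lower, 1 of them in all 8 fits. Fgfr3, a receptor that restrains growth of cartilage and is present in osteoblasts, stood at 554 and 555 CPM against 204 and 188, 2.83-fold higher. Fgfr2 was 1.49-fold higher at 845 and 847 CPM against 562 and 569 (6 of 8), and 5 of 11 members of the FGF list were higher and 1, Spry1, lower. In the retinoic acid pathway 5 of 10 were higher and 2 lower. Cyp26b1, which degrades retinoic acid, stood at 638 and 576 CPM against 85.9 and 137, 5.44-fold higher, and Aldh1a1, which makes it, was 4.80-fold higher. Another synthesis enzyme, Aldh1a3, was 5.94-fold lower at 3.45 and 4.47 CPM against 20.9 and 26.0. Notch and Hedgehog genes had 3 higher and 1 lower each, of 7 and 6 tested, and 0 of these calls held in all 8 fits. Notch1, for one, stood at 72.5 and 72.6 CPM in control and at 8.49 and 32.1 in NM-DMSO, where the 2 libraries differed widely.

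Lipid synthesis genes were lower in control. Of 19 tested genes of cholesterol synthesis and uptake, 12 were called lower and 0 higher (median log2 fold change -0.62), against 11.5% called lower over all tested genes. Idi1, the isomerase of isoprenoid synthesis, stood at 110 and 104 CPM against 213 and 215, 2.00-fold lower (adjusted p = 0.000631), with a pseudogene-like locus sharing 684 bases. Sc5d stood at 97.6 and 97.5 CPM against 161 and 175, 1.73-fold lower, and Msmo1 was 1.89-fold lower; these 3 were the members called in all 8 fits. Hmgcs1, which makes HMG-CoA, was 1.64-fold lower (6 of 8). The fatty acid list had 7 of 13 lower and 0 higher (median -0.42). Fads2, a desaturase of long fatty acids, stood at 160.2 and 155 CPM against 331 and 335, 2.11-fold lower (adjusted p = 0.000395), and the calls of Acly and Elovl6, at 1.93-fold and 2.11-fold lower, held in 7 and 6 of the 8 fits, that of Acly being lost without control 1. With exon-length offsets 13 and 9 genes of the 2 lists were lower and 0 higher.

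Genes of hypoxia and glycolysis had 9 of 18 lower and 1 higher, against 11.5% and 12.0% of all tested genes. The exception was Vegfa, the angiogenic factor, at 169 and 164 CPM against 51.7 and 61.3, 2.95-fold higher (adjusted p = 0.000213). Ak4, a mitochondrial adenylate kinase, was 5.96-fold lower at 3.86 and 6.01 CPM against 27.6 and 31.0, with a pseudogene sharing 672 bases. Pfkfb3, which promotes glycolysis, was 2.39-fold lower, not called without control 2. The glycolytic enzymes Ldha, Aldoa, Eno1 and Tpi1 were lower in 2 of 8 fits only, and NM-DMSO 1 lay above NM-DMSO 2 for each, at 408 against 209 CPM for Tpi1 and 136 against 102 for Aldoa. Ldha shares 997 bases with Gm5452, which had 55497 counts over the 8 libraries against 47051 for Ldha, so reads could be split. The median of the list was -0.59 on the log2 scale and -0.35 without NM-DMSO 1. In the NRF2 list, Gclc, which limits glutathione synthesis, stood at 296 and 295 CPM against 80.9 and 88.5, 3.49-fold higher, whereas the detoxifying enzyme Nqo1 was 2.37-fold lower at 25.3 and 25.1 CPM against 67.1 and 52.2. In all, 2 of its 11 tested members were higher and 4 lower.

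Cytosolic ribosomal proteins and nuclear-coded subunits of oxidative phosphorylation were lower in control, but exon length moved with these differences. Of 18 ribosomal protein genes 12 were called lower and 0 higher, with a median of -0.81 that was -0.47 without NM-DMSO 1, and 0 were called in all 8 fits. Rps24 stood at 67.5 and 66.7 CPM against 135 and 106, 1.80-fold lower, and many near-identical pseudogenes share its sequence. Rpl4, Rpl5, Rpl7 and Rpl13a also share sequence with near-identical loci that had more counts than the genes. Over the 8 libraries Rpl5 had 3368 counts and Gm15500 had 223249. How reads were split between such loci was not tested. Of 18 oxidative phosphorylation genes 6 were lower and 0 higher, with a median of -0.42, or -0.21 without NM-DMSO 1, and again 0 in all 8. Over protein-coding genes, the median log2 fold change was -0.41 for the 1478 with up to 2000 bases of exons, -0.17, 0.08 and 0.30 in the next bins, the last being the 2237 genes over 8000 bases. Without NM-DMSO 1 these medians were -0.15, -0.05, 0.05 and 0.15. Between the 2 NM-DMSO libraries themselves they were 0.49, 0.20, -0.07 and -0.31, whereas between the control libraries they stayed at 0.00. The part of exon length in these short-gene groups was not tested beyond the offsets, with which 11 ribosomal and 7 oxidative phosphorylation genes were lower.

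**Figure D4:**
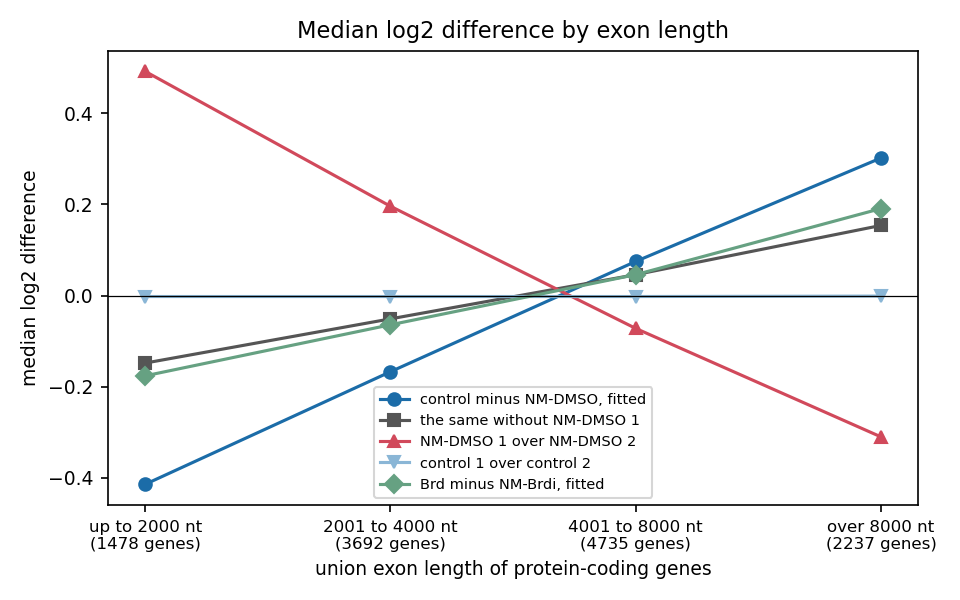
Median log2 difference of protein-coding genes (vertical axis) in 4 bins of union exon length (horizontal axis), for the fitted comparison, the same without NM-DMSO 1, the libraries of each group against each other, and Brd minus NM-Brdi. The control libraries stay at 0.00 in every bin, while NM-DMSO 1 over NM-DMSO 2 goes from 0.49 to -0.31.

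The calls in the cell cycle, stress and chromatin lists are set against 23.4% of all tested genes. Of 20 mitosis genes 4 were called higher and 0 lower, led by Ccna2, cyclin A2, at 135 and 128 CPM against 95.8 and 90.5, and Mki67 stood at 596 and 623 CPM against 225 and 409; 0 of the 4 were called in all 8 fits, and without NM-DMSO 2 the list had 12 higher and 7 lower. Ccna2 shares 510 exon bases with Exosc9, so reads could be split between them. Of 20 replication genes 1 was called, Mcm2, 1.24-fold higher in 2 of 8 fits. Of 16 genes of ER stress and amino acid response 4 were higher and 0 lower. Of 12 interferon-stimulated genes 2 were lower, among them Ifit3, 3.77-fold lower, at 4.22 CPM or less. Ifit3 matches Ifit3b over 1700 of its 1745 bases, so the split of reads between them is uncertain. Brd9, the target of the inhibitor, stood at 31.1 and 29.2 CPM in control and 30.9 and 30.5 in NM-DMSO, with overlapping groups (log2 fold change -0.03, SE 0.11, adjusted p = 0.859). Among all 17 tested BAF subunits 4 were higher and 1 lower, and 2 higher and 4 lower with exon-length offsets. Of these, Smarcd3 was the largest at 1.93-fold higher, not called without control 2, with 2466 exon bases shared with Chpf2.

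**Figure D5:**
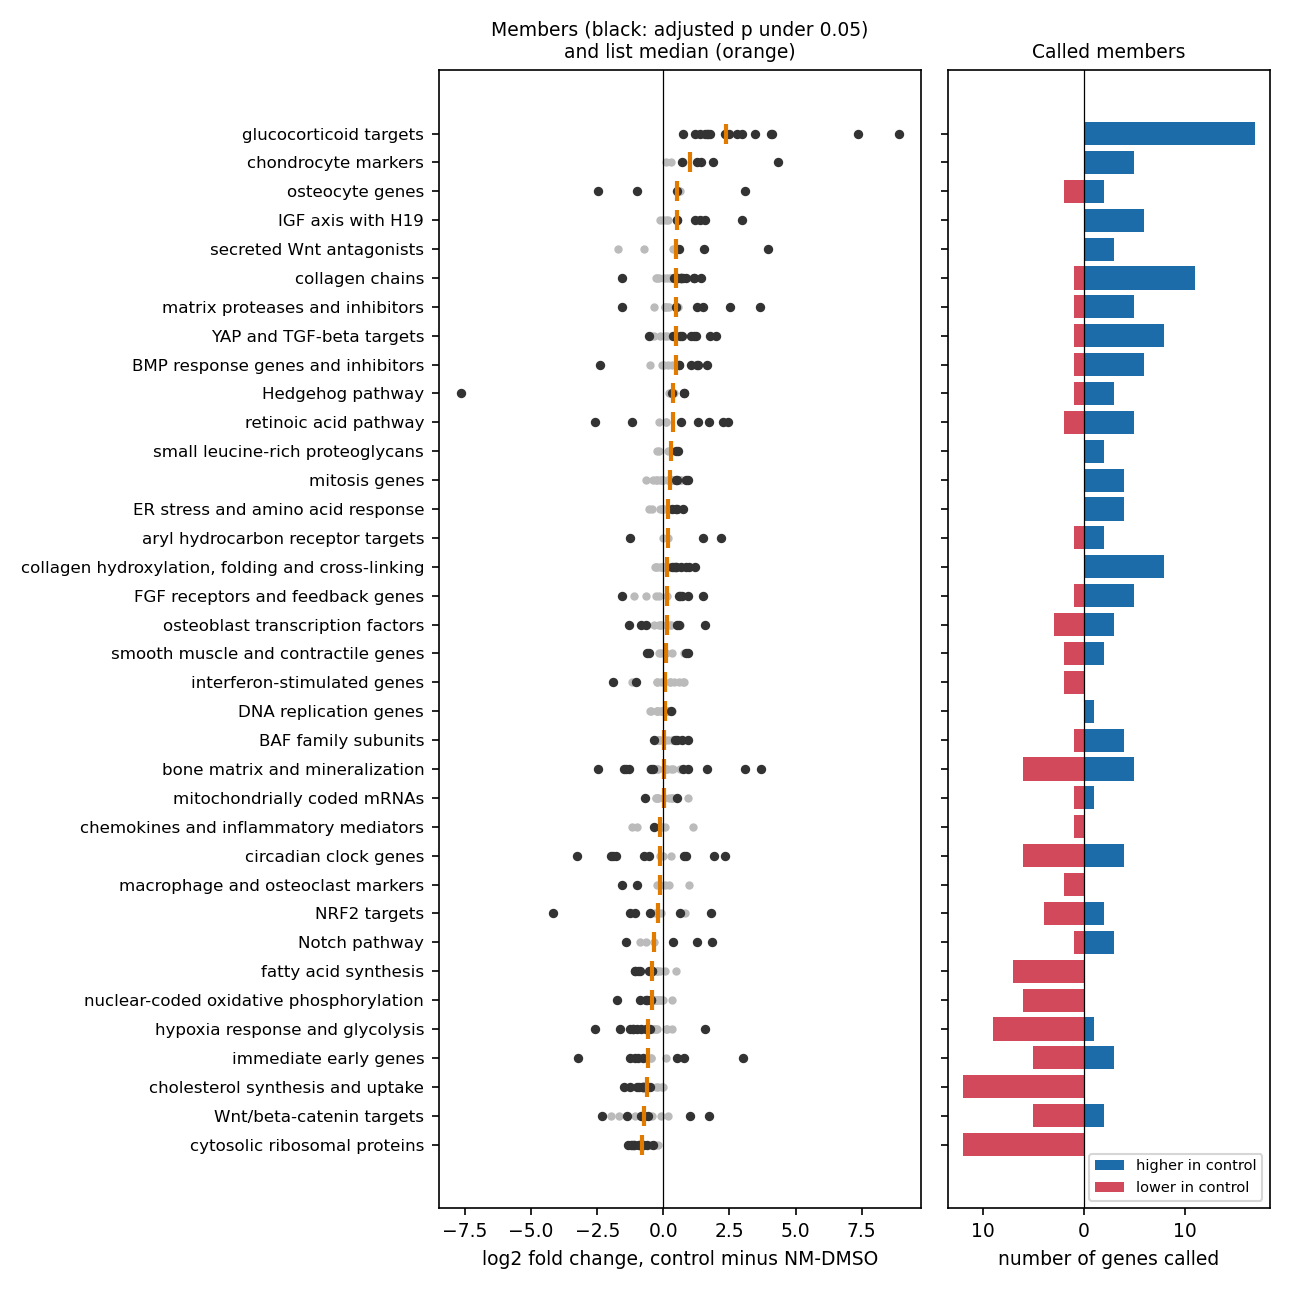
Gene lists with at least 5 tested members, ordered by their median log2 fold change (orange), with each member as a point (black where called, left panel) and the number of members called higher or lower in control (right panel). The glucocorticoid list, with 17 of 17 called higher and a median of 2.38, stands at the top and the ribosomal list, with 12 of 18 called lower and a median of -0.81, at the bottom. The lists were written with earlier results of these data known.

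Outside the lists, several of the genes with the largest differences had few or no counts in NM-DMSO. Sash3, an adaptor known from lymphocytes, had 704 counts over the control libraries and 0 over NM-DMSO, at least 276-fold higher against a floor of 3 counts over the group. Hif3a, a hypoxia-inducible factor subunit that restrains the others, had 425 and 0, at least 167-fold higher. Dpep1, a membrane dipeptidase, had 1281 counts against 1, a ratio of 1506 with an exact 95% counting interval of 270 to 59527. Hp, haptoglobin, which binds free haemoglobin, stood at 83.0 and 82.6 CPM against 1.34 and 0.757, 79.3-fold higher. Tns1, tensin 1, which links integrins to actin, stood at 862 and 835 CPM against 36.4 and 55.3, 18.5-fold higher. All 5 were called in all 8 leave-one-out fits. So were Mettl21e, Ikzf4, Crispld2, Shroom3, Adam12 and Gdpd2, which are also among the 15 largest, as are Zbtb16, Hapln1 and Sgk1. Crispld2 stood at 41.6 and 41.3 CPM against 0.596 and 1.51. Its log2 fold change of 5.27 was 4.77 without NM-DMSO 1 and 6.11 without NM-DMSO 2. Adam12, a metalloprotease, stood at 245 and 244 CPM against 5.46 and 11.98.

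The largest differences in the other direction were smaller. Kcnj2, an inward rectifier potassium channel, stood at 0.669 and 0.655 CPM in control and at 7.99 and 14.8 in NM-DMSO, 17.1-fold lower (adjusted p = 0.00122). Lamp5, a lysosome-associated membrane protein, was 9.07-fold lower at 2.88 and 3.57 CPM against 33.5 and 24.9. The guidance molecules Sema6a and Sema3c were 7.95-fold and 6.75-fold lower. Ptn, pleiotrophin, a heparin-binding growth factor of bone, was the most abundant of the 15, at 334 CPM in both control libraries and 1640 and 1038 in NM-DMSO, 4.01-fold lower (adjusted p = 0.00106). The others were Egr2, Tspan7, Rspo3, Ak4, Aldh1a3, Gas2, Phlda1, C1qtnf3, Pgm5 and Per3. Of the 15, 13 were called in all 8 fits, Phlda1 in 6 and Pgm5 in 7 (not without control 1), and Gas2 overlaps Fancf.

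The libraries titled Brd and NM-Brdi form another pair in which 1 title carries the prefix NM, and it shares no library with control and NM-DMSO, although all 8 enter 1 fit. In it 1789 genes (10.5% of those tested) were called, 1147 (6.73%) higher and 642 (3.77%) lower in Brd. Called in the same direction in both pairs were 1208 genes, which is 30.3% of the calls of control against NM-DMSO and 67.5% of those of Brd against NM-Brdi, and 24 genes were called in opposite directions. Of the 17 glucocorticoid-regulated genes 14 were called higher in Brd and 0 lower, with Sgk1 at 494 and 475 CPM in Brd and 25.1 and 19.9 in NM-Brdi and Tsc22d3 at 951 and 1057 against 62.5 and 71.1. For Zbtb16 the counts were 173 and 240 in Brd and 0 and 0 in NM-Brdi. The clock genes had 3 higher and 6 lower and the cholesterol genes 0 higher and 16 lower. Mitosis genes had 4 higher and 0 lower in control against NM-DMSO, 0 of them in all 8 fits, and 0 higher and 15 lower in Brd against NM-Brdi; no list was tested for a difference.

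The difference between the pairs was tested gene by gene, and 7 genes (0.0411%) passed, with 299 under DESeq2. For Draxin the log2 fold change was 3.94 in control minus NM-DMSO and 1.05 in Brd minus NM-Brdi (interaction 2.89, SE 0.27, adjusted p = 0.0213). Ibsp, at 429 and 547 CPM in Brd and 2.49 and 6.63 in NM-Brdi, had log2 fold changes of 3.70 and 6.74, and the interaction was not called (adjusted p = 0.081). Sp7 had log2 fold changes of 0.52 and 0.43 (interaction adjusted p = 0.894). Spp1 was higher in control by 0.92 on the log2 scale but at 141 and 152 CPM in Brd against 166 and 191 in NM-Brdi (interaction adjusted p = 0.0827).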

How the data were processed

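RNA from MC3T3-E1 cells was taken with Trizol and sequenced in 8 libraries by a service provider, with poly(A) enrichment or ribosomal depletion both named, per the labels' protocols. The submitters' processing notes name STAR 2.7.10a, featureCounts 2.0.3, Trimmomatic 0.39 and FastQC 0.11.9 without their settings. They list both GRCm38 and GRCh38 as builds, and the table's symbols are those of mouse. Strand setting, annotation release and multi-mapping rule are not given in the sources used. The authors deposited raw counts for 28901 genes.

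Groups follow the titles. Genes were filtered with filterByExpr, scaled with TMM factors and fitted with the quasi-likelihood test of edgeR 4.0.16 (R 4.3.3) on all 8 libraries together, each group having its own term, with Benjamini-Hochberg adjustment over the 17038 tested genes and calls under 0.05. The contrasts were control minus NM-DMSO, Brd minus NM-Brdi, and their difference. CPM were computed from library sizes adjusted by the TMM factors. Standard errors (SE) derive from the test's F statistic. The script was tested on simulated data. Exact counting intervals at 95% and the floor of 3 counts cover counting error only.

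Named genes are 11 genes of osteoblast, BRD9 and Wnt interest, the 15 largest called differences in each direction among genes that reach 10 CPM on average in the higher group without overlap, up to 6 called members of each list by p, and defining markers; some genes that this rule names are not reported here. Further members of a list, and Nr3c1, were named after their values were seen. The members and the 43 gene lists were chosen with earlier results of these data known, so list counts are descriptions. Exons and lengths are from GENCODE M21, which 97.6% of tested symbols matched. Transcripts of named genes were searched with BLAST+ 2.17.0 for at least 200 bases at 95% identity with another counted gene. Alternatives were other scalings and filters, DESeq2 1.42.0, limma 3.58.1 (voom with group weights), the 4 libraries alone, a replicate block, each library left out and, chosen after seeing the data, exon-length offsets. Deviations of same-numbered libraries correlated at -0.0029 for control and NM-DMSO and at up to 0.1523 (NM-DMSO and NM-Brdi) over the 6 pairs of groups, and the labels give the numbers no meaning, so they were not taken as pairs.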

Additional observations from a re-analysis of the deposited data

Results flagged for a closer look

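The 7 genes below had a difference between control and NM-DMSO that was not the same as the difference between Brd and NM-Brdi, by the interaction test of the edgeR fit. Leaving out any 1 of the Brd, NM-Brdi and control libraries, the test called 0 genes, and it called 1589 without NM-DMSO 1 and 7458 without NM-DMSO 2.

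Lum, lumican, a small proteoglycan that spaces collagen fibrils, stood at 575 and 556 CPM in control and 674 and 594 in NM-DMSO, but at 13.5 and 18.8 in Brd and 169.9 and 227 in NM-Brdi. Its interaction was 3.452 on the log2 scale (adjusted p = 0.00793). Ccn2, a matricellular target of YAP and TGF-β, stood at 324 and 261 CPM in Brd and 52.2 and 40.4 in NM-Brdi and was not called between control and NM-DMSO, an interaction of -3.125 (adjusted p = 0.00793). Ccn3, a relative of Ccn2, was lower in both pairs, by 0.42 and 2.52 on the log2 scale, an interaction of 2.106 (adjusted p = 0.00793).

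The Wnt antagonist Draxin was higher in both pairs with an interaction of 2.893 (adjusted p = 0.0213). Sfrp2, another Wnt antagonist, was higher in control by 0.58 on the log2 scale and lower in Brd, at 117 and 121 CPM against 277 and 260.03, an interaction of 1.758 (adjusted p = 0.00793). Gas1, a co-receptor for Hedgehog ligands, had log2 fold changes of 0.34 and -0.87, an interaction of 1.204 (adjusted p = 0.0457). Cdc42ep3, an effector of the GTPase Cdc42, had -0.59 and 0.72, an interaction of -1.312 (adjusted p = 0.0457). For Sfrp2, Gas1 and Cdc42ep3 both differences were called, in opposite directions.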

How the results depend on the processing

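Control against NM-DMSO had 3988 calls, and RLE scaling, a minimum of 10 CPM and exon-length offsets kept the count within 1.5 times of it; so did DESeq2, with 4788. Upper-quartile scaling gave 4670, but 1689 higher and 2981 lower. The count moved to 6274 with no filter, 2656 with weighted voom and 371 (311 higher, 60 lower) with the 4 libraries alone; these 371 were all among the 3988. Leaving out 1 library gave 556 to 11265. Over the lists, 223 of 479 tested members were called, with 59 in the 4 libraries alone and 71 to 369 with 1 library left out. Brd against NM-Brdi had 1789 calls, and 3198 with no filter, 7383 with voom, 7215 with 4 libraries and 396 to 7691 with 1 library left out. The interaction had 7 calls, and 608 with no filter, 22 at a minimum of 10 CPM, 299 with DESeq2, 154 with voom, 121 with exon-length offsets and 0 to 7458 with 1 library left out. The 4 libraries alone leave fewer samples to the fit, and calls fell for control against NM-DMSO but rose for Brd against NM-Brdi. In the voom fit each NM-DMSO library had a weight of 0.1449, and those of the other groups had 1.4246 to 2.278. Why these counts moved was not tested. The replicate block gave 3753, 1550 and 5 calls in the 3 comparisons. The numbers were not taken as pairs: correlations of same-numbered libraries were -0.0029 to 0.1523, the highest for NM-DMSO and NM-Brdi, and none was low enough for a crossed pairing.

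Of 199 called named genes, 75 were still called with the 4 libraries alone, 155 with voom, 186 of 198 with exon-length offsets, 193 with the replicate block and 79 in all 8 leave-one-out fits, and 0 changed direction under any alternative. Of the 120 others, 53 were lost without any 1 of the Brd, NM-Brdi and control libraries and 45 without either control library. Only genes with no call reversed: Brd9 (-0.07 to 0.022 over the fits without 1 library), Col1a1 (-0.02 with exon-length offsets) and Acta1 (-0.173 to 0.046 over the fits without 1 library, 0.101 with exon-length offsets).

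With 2 libraries a group, small differences are limited by the spread between libraries, and below about 1 CPM by 16.8 to 22.5 counts per CPM. NM-DMSO 1 and NM-DMSO 2 differ in a way that follows exon length, and the part of that trend in the results was not tested beyond the offsets.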
